A study of Mus musculus with 153 samples.

Results

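Cr2 and Igfl3 are 2 of the 18810 genes measured in tail skin, and each divided the mice into a low and a high set with nobody in between. Both were chosen from their values in these same data, as genes that vary widely between mice, so their spread is described here and not tested. The choice set no numerical threshold. The standard deviation (SD) of Cr2 over mice ranked 10 and that of Igfl3 ranked 11 among the 18810 genes.

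Tail skin came from a backcross between Mus spretus, a wild mouse species, and the inbred laboratory strain FVB/N. Spretus males were mated with FVB/N females that lacked Hras, a small GTPase gene, and the hybrid daughters were mated back to FVB/N males that lacked Hras or had a single copy of it. Every mouse was 8 weeks old and untreated, and is labelled as Hras wild type (WT) or as heterozygous (HET), with its sex and 1 of 3 plates. After 2 arrays labelled as outliers were set aside, 37 HET mice and the larger group of WT mice remained, 81 males and 70 females in all, on plates of 49, 46 and 56 mice. In such a backcross each mouse has, at any place on an autosome, either FVB/N sequence on both copies or FVB/N on one and spretus on the other. Which of these a mouse carried at a given gene was not analysed here. All mice thus have a mixed background, and no skin of pure FVB/N or spretus mice was analysed here. The sequences of the array's probes were not available. Whether the probes read FVB/N and spretus transcripts equally well was therefore not tested. Levels, slopes and folds below are those of the array signal.

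Cr2 encodes complement receptor 2 (CD21) and, in mice, through splicing of the same gene, complement receptor 1 (CD35). These proteins bind fragments of complement C3 that coat antigens. They are known from B lymphocytes, where CD21 and Cd81 are parts of a co-receptor of the antigen receptor, and from follicular dendritic cells, which hold coated antigen in lymphoid follicles. Igfl3 is the mouse member of the insulin-like growth factor-like family, small secreted proteins rich in cysteine, and it binds the receptor Igflr1. The family is known from skin, where it is linked to inflammation and wounding.

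The stretch around the start of each gene is shown to place the genes and let the start regions be compared. Both are from the RefSeq reference for GRCm38.p6, with 250 bases before the start and 50 after it, and are the reference letters, not those of the strains crossed here. Cr2 is on the reverse strand of chromosome 1 at chr1:195176670-195176969, and Igfl3 on the forward strand of chromosome 7 at chr7:18176244-18176543. Capitals mark every match, on either strand, to TATAAA (the TATA box), CCAAT or GGGCGG (the GC box), and no marked matches overlap.
Cr2: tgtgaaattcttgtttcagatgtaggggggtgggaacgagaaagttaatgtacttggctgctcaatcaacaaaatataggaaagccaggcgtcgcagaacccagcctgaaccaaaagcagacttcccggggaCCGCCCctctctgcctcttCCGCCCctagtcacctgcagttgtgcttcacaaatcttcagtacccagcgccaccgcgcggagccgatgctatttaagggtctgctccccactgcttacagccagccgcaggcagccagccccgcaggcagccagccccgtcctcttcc
Igfl3: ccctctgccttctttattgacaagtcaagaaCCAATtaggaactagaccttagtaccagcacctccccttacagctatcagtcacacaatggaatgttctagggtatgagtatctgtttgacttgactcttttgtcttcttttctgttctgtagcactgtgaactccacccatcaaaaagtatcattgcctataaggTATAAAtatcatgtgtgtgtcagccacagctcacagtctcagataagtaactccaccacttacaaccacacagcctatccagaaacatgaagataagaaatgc
The Cr2 stretch held 2 GC box matches and neither of the other motifs. The Igfl3 stretch held 1 TATA box match and 1 CCAAT match, and no GC box match. Of 32851 such stretches in the table, 13.6% held TATAAA, 37.4% CCAAT and 35.7% GGGCGG, so these matches are common and say nothing about which factors bind. No source used here names the genome build of the array, and gene positions below are therefore given only as places in the gene order.

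Cr2 was either low or high in every mouse. On the log2 scale of the array its lowest value was 2.53, its median 6.27 and its highest 7.04. The lower set held 65 mice between 2.53 and 3.70, with a median of 3.04 and an SD of 0.24. The upper set held 86 mice between 6.07 and 7.04, with a median of 6.58 and an SD of 0.21. No mouse lay in the interval of 2.37 between the sets. The medians differed by 3.54, which is 11.6-fold on the array's linear scale. The lower median lay near the lower quartile of all probe sets on an array (3.02 to 3.20), where background makes up much of the signal. How much Cr2 transcript the lower mice had, and so the true fold, is therefore not well measured.

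Igfl3 had the same shape. Its lowest value was 2.54, its median 5.14 and its highest 7.78. The lower set held 75 mice between 2.54 and 3.84 (median 3.27, SD 0.31) and the upper set 76 mice between 5.14 and 7.78 (median 6.57, SD 0.45). The empty interval was 1.31 wide and the medians differed by 3.29, or 9.81-fold, with the same limit at the low end. The upper set of Igfl3 was more spread than that of Cr2. The mouse at 5.14 lay well below most of it.

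Fits of normal distributions chose 2 components over 1 or 3 for both genes, with a gain in the Bayesian information criterion (BIC) over a single component of 406 for Cr2 and 239 for Igfl3. The share of mice in the upper set was 57% for Cr2 (exact binomial 95% interval 49 to 65) and 50.3% for Igfl3 (42.1 to 58.6). Both genes were chosen for a wide spread, which an even split favours, so the shares are description and were not tested against one. Such a shape was rare on the array. With at least 6 mice required on each side, the widest empty interval of a gene had a median of 0.044 over all genes. It was at least 1 in 9 genes, of which 5 are autosomal: Cr2, Cwc22, Igfl3, Rimbp2 and H2-Ea. Cr2 ranked 4 and Igfl3 ranked 7 among all genes, and Xist and the Y-linked genes Eif2s3y, Uty and Kdm5d, which separate females from males, took the other places above Igfl3 with Cwc22.

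**Figure D1:**
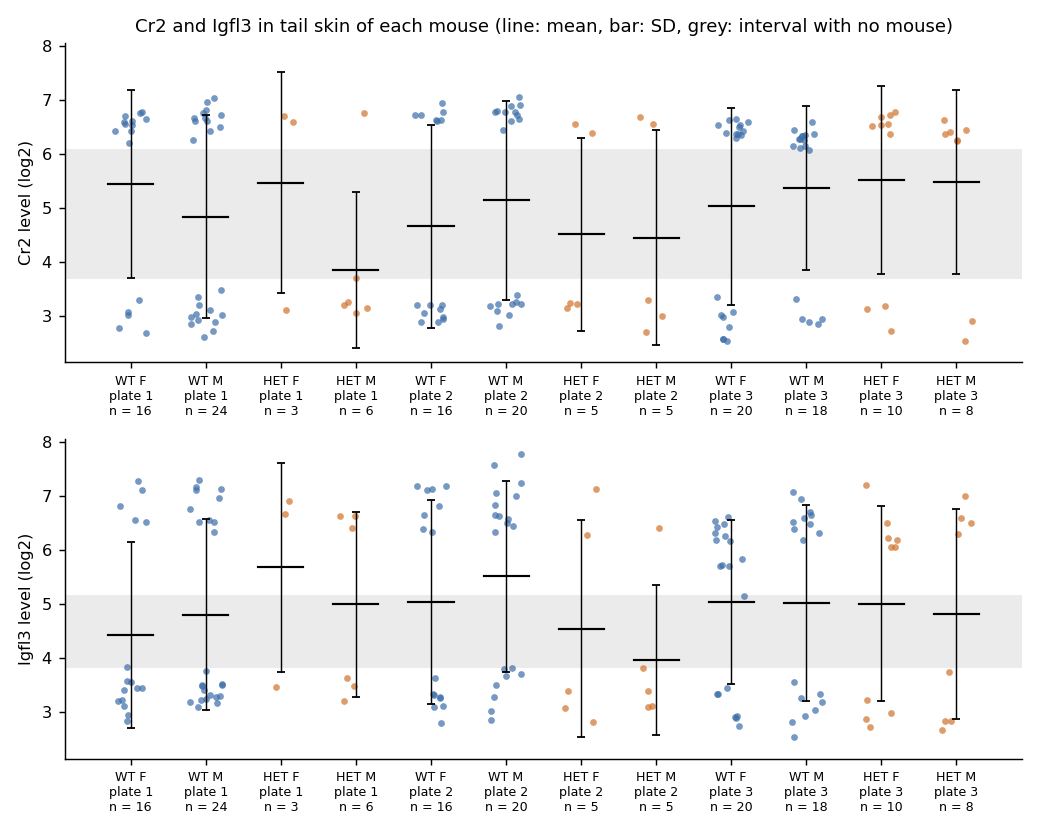
The level of Cr2 (top) and of Igfl3 (bottom) on the log2 scale in each mouse, by Hras genotype, sex (F, M) and plate; blue points are WT and orange points HET, lines are means and bars SDs, and grey bands mark the interval with no mouse. Both levels occur in each of the 12 combinations of labels, and the means fall mostly between the sets, where no mouse lies.

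Both sets of mice occurred in each genotype, sex and plate. Cr2 was in its upper set in 20 of 37 HET mice and 57.9% of WT mice, in 45 of 81 males and 41 of 70 females, and in 26 of 49, 22 of 46 and 38 of 56 mice on plates 1, 2 and 3. For Igfl3 the counts were 18 of 37 HET mice and 50.9% of WT mice, 40 of 81 males and 36 of 70 females, and 20 of 49, 23 of 46 and 33 of 56 mice by plate. None of these 6 comparisons passed: the smallest p was that of Cr2 by plate (two-sided permutation test over all mice, p = 0.10, adjusted over the 6 tests 0.56), and the other adjusted values, from Fisher's exact tests or the permutation test, were 0.56 to 0.87. The interval of each share is wide, so a modest difference between labels would not be detectable.

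The limma fit across all genes, with genotype, sex and plate together, gave the same picture for the mean level. Cr2 was 4.95 ± 1.75 (SD, n = 37) in HET and 5.06 ± 1.77 in WT mice, a fitted difference of -0.18 ± 0.33 (SE, limma adjusted p = 0.97). Igfl3 was 4.81 ± 1.74 in HET and 4.99 ± 1.74 in WT mice, a difference of -0.20 ± 0.33 (limma adjusted p = 0.96). The split within each group makes these standard errors large. Of all genes, 0.112% were called between the genotypes at an adjusted p under 0.05, and neither gene was among them. Between the sexes 3.62% were called; the male minus female difference was -0.06 ± 0.29 for Cr2 (limma adjusted p = 0.95) and 0.13 ± 0.28 for Igfl3 (limma adjusted p = 0.88). A genotype by sex interaction was called for 0% of genes (895 at an unadjusted p under 0.05), and was -0.57 ± 0.66 for Cr2 and -0.57 ± 0.65 for Igfl3. Plates were called different for 0.0213% of genes, and the limma F test over plates gave an unadjusted p of 0.37 for Cr2 and 0.60 for Igfl3.

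Within a set of mice, where the spread is small, the plates did differ. Among the 86 mice of the upper Cr2 set, Cr2 was 6.62 ± 0.19 (SD, n = 26) on plate 1, 6.70 ± 0.16 (n = 22) on plate 2 and 6.41 ± 0.17 (n = 38) on plate 3. Among the 76 mice of the upper Igfl3 set, Igfl3 was 6.80 ± 0.30 (n = 20), 6.84 ± 0.42 (n = 23) and 6.35 ± 0.43 (n = 33). In both sets of both genes plate 3 had the lowest mean. Permutation tests over the mice of a set, adjusted over 12 tests chosen after the data were seen, gave 0.00012 for each upper set and 0.0018 for the lower Igfl3 set (3.36, 3.31 and 3.05 by plate). The lower Cr2 set just missed the threshold, at 0.0503 (3.06, 3.10 and 2.90). The plate difference within a set is at most 0.48, small beside the distance between sets, and all fits below carry plate as a term. Genotype passed in none of the 4 sets (adjusted permutation p 0.37 to 0.67). Sex passed in the upper Igfl3 set, where males were at 6.73 ± 0.37 (n = 40) and females at 6.48 ± 0.51 (n = 36; adjusted permutation p = 0.047), but within plates males minus females was -0.07, 0.03 and 0.41, and permuting sex within plates gave p = 0.062.

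No relation between Cr2 and Igfl3 passed a test. The mice fell into all 4 combinations: 29 low for both, 36 low for Cr2 and high for Igfl3, 46 high for Cr2 and low for Igfl3, and 40 high for both. The slope of Igfl3 on Cr2 in the limma fit was -0.05 (adjusted p = 0.89). Because the mice form separate clusters, no correlation over all mice is given. Within the 4 combinations Pearson's r was 0.23 (n = 29), 0.16 (n = 36), 0.13 (n = 46) and 0.10 (n = 40), with Spearman's rho of 0.22, 0.18, 0.17 and 0.09, and no permutation p adjusted over 20 correlations was below 0.48.

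**Figure D2:**
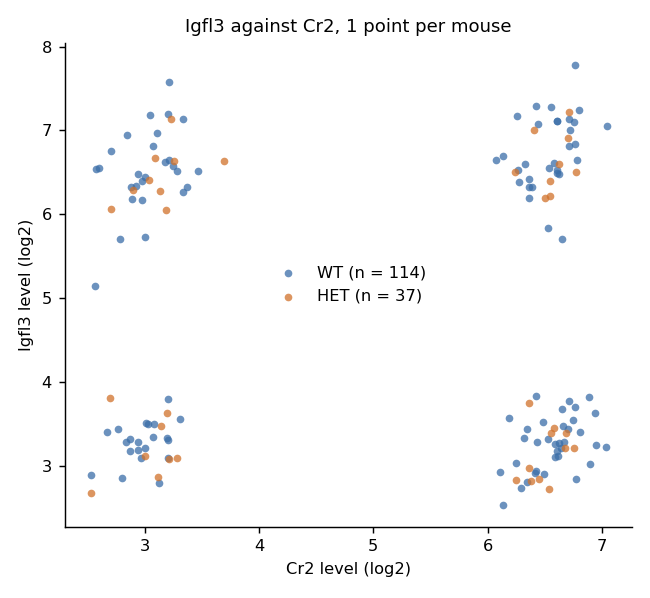
Igfl3 against Cr2 on the log2 scale, 1 point per mouse, blue for WT and orange for HET. The mice form 4 separate clouds of 29, 36, 46 and 40 mice.

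Keratinocyte keratins were high in all mice: Krt5 ran from 11.6 to 12.2 and Krt10 from 12 to 12.4. Some genes that define B lymphocytes were below the median of all probe sets on an array (4.67 to 4.89) in all mice. Ms4a1 (CD20) ran from 1.80 to 2.87, Cd79a from 1.62 to 3.69 and Pax5 from 2.97 to 4.29. The slope of Ms4a1 on Cr2, that is its log2 change per log2 unit of Cr2, was 0.00 ± 0.01 and that of Cd79a -0.02 ± 0.02. Of 22 measured genes on a list for B lymphocytes 0 were called with Cr2, and of 14 on a list for follicular dendritic cells 0, which does not set lists of this size apart from the 0.633% called of all genes. The median slope of these lists was 0.0003 and -0.009, and that of all genes 0.0008. Ms4a1, Cd79a and Pax5 were thus low in all mice, also those with high Cr2. Other genes of these lists were higher. Cd72 of the B lymphocyte list ran from 3.69 to 5.45 in the mice with high Cr2. Cxcl13 of the follicular dendritic cell list ran from 3.23 to 6.93 over all mice. Which cells carried the Cr2 transcript was not tested.

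Genes that varied with Cr2 lay mostly on its own chromosome. Of 18809 other genes, 119 (0.633%) were called in the limma fit with Cr2 as a covariate, 70 with a positive slope (0.372%) and 49 with a negative one (0.261%). Cr2 is the last of 1061 measured genes in the order of chromosome 1. On that chromosome 69 of 1060 other genes were called (6.51%), against 0.282% of the 17749 genes elsewhere, and 45 of the 50 smallest p-values belonged to it. Of the 25 nearest genes 9 were called, of the next 25 9, of the next 50 16, of the next 100 13, and of the 860 beyond 22. Both signs were common at each distance. The farthest called gene was 620 places away.

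Sccpdh, which encodes a saccharopine dehydrogenase-like oxidoreductase, had the smallest p of all genes. It ran from 6.59 over a median of 8.27 to 9.06, and its slope was 0.29 ± 0.02 (limma adjusted p = 4.0e-29). Over the distance between the Cr2 medians this fits a difference of 1.04, or 2.06-fold in array signal. Ifi202b, a member of the interferon-inducible family that binds DNA in the cytoplasm, ran from 2.64 to 6.92, with a slope of 0.45 ± 0.04 and a fitted 3.05-fold. It had an empty interval of its own, 0.31 wide, and was on the other side from Cr2 in 20 mice. Its close relative Ifi203, 1 place on, had a slope of 0.17 ± 0.02, and near-identical family members may share probes, so neither is certain as a single transcript.

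The 10 genes most alike to Cr2 were those with the highest Pearson r with it over all mice after plate, sex and genotype were removed, and the others among them had smaller slopes. They were Dusp12, a phosphatase (0.14 ± 0.01), Mtarc1, a mitochondrial reductase (0.09 ± 0.01), Traf5, an adaptor of tumour necrosis factor receptors (0.08 ± 0.01), Bpnt1, a nucleotidase (0.07 ± 0.01), and Nit1, Mark1 and F11r, the last a junction adhesion protein (0.05 to 0.07). All lay on chromosome 1, between 19 and 220 places from Cr2. The 5 most negative were also on chromosome 1. Smyd2, a lysine methyltransferase, ran from 6.69 to 7.76 and had a slope of -0.09 ± 0.01 (limma adjusted p = 4.2e-20). Brox, Catspere2, Tlr5 (the flagellin receptor) and Nvl followed at -0.10, -0.09, -0.08 and -0.06.

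The complement genes next to Cr2 were not among those that rose with it. Cr1l, the adjacent gene, which encodes the membrane complement regulator Crry, ran from 5.36 to 6.66 and had a slope of -0.03 ± 0.01 (limma adjusted p = 0.16). Cd46, the next, also a membrane cofactor that inactivates C3b, ran from 4.10 to 5.82 and fell with Cr2, with a slope of -0.08 ± 0.02 (limma adjusted p = 9.6e-04). That fits a 1.21-fold lower level over the distance between the Cr2 medians. Cd34, 4 places away and known from hair follicle stem cells, had a slope of 0.00 ± 0.02, and A330023F24Rik, 3 places away, one of -0.01 ± 0.01. Plxna2, a semaphorin receptor 5 places away, had a slope of -0.04 ± 0.01 (limma adjusted p = 1.6e-04). Of 9 measured partners of complement receptors 1, Cd46, was called, against 0.633% of all genes. Cd46 is also 1 of the 25 genes nearest to Cr2, of which 36% were called. Its call therefore does not set the partners apart from other genes at that place. Cd81 had a slope of -0.01 ± 0.01 (limma adjusted p = 0.63).

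Off chromosome 1, 50 genes were called. The first by p was Pck1, a gluconeogenesis enzyme on chromosome 2 (slope -0.09 ± 0.02, rank 31), named after its value was seen. Of 17 measured sebaceous gland genes 2 rose with Cr2, against 0.372% of all genes: Cidea, a lipid droplet protein (0.05 ± 0.01, limma adjusted p = 0.012), and Pparg, a lipid regulator (0.04 ± 0.01, limma adjusted p = 0.047). Pparg lost its call in 13 of 16 other settings, among them with the 2 outlier arrays included (limma adjusted p = 0.13) and after quantile normalization (limma adjusted p = 0.076). Cidea lost its call in 7 of the 16, which were the fits of males, females, WT mice, HET mice or a single plate alone.

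Genes that varied with Igfl3 were concentrated on chromosome 7. Called genes numbered 193 (1.03%), 88 with a negative slope (0.468%) and the others with a positive one (0.558%). Igfl3 is at place 193 of 1647 measured genes on chromosome 7, where 162 of 1646 other genes were called (9.84%), against 0.181% of 17163 elsewhere. Of the 50 smallest p-values 49 belonged to that chromosome. Counted on both sides, 8 of the 50 nearest genes were called, 20 of the next 50, 18 of the next 100, 53 of the next 192 and 63 of the 1254 beyond. The farthest called gene was 1371 places away. Most of the 10 nearest belong to the Ceacam and Psg families, with levels near the floor of the array.

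**Figure D3:**
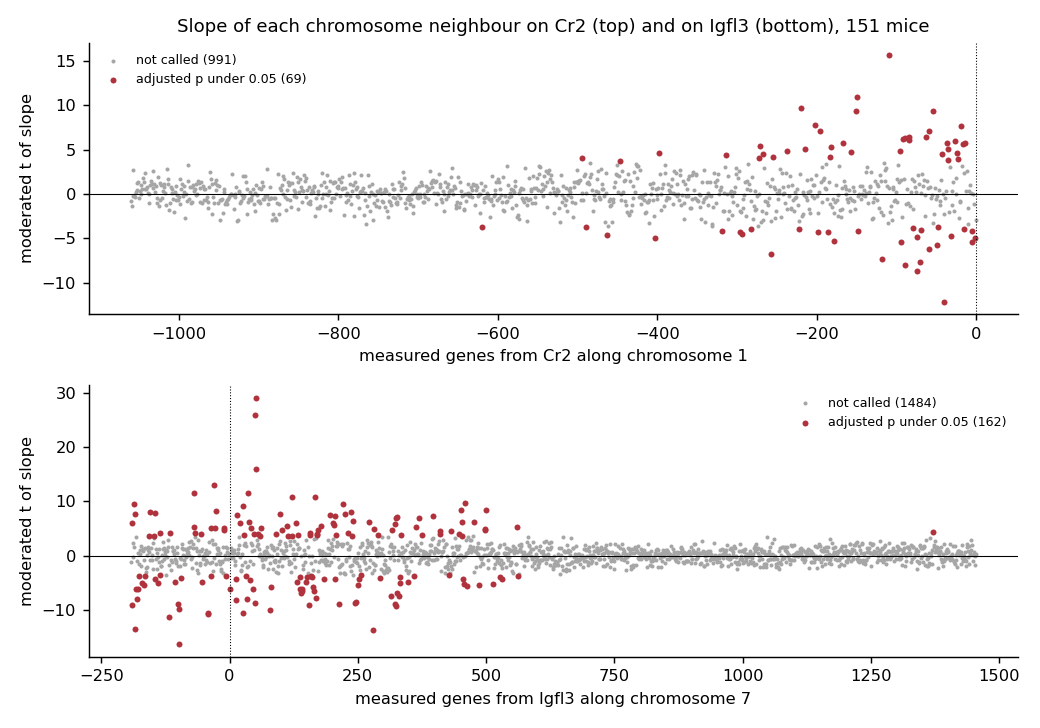
Moderated t of the slope on Cr2 (top) or on Igfl3 (bottom) for each other measured gene of the same chromosome, against its place in the gene order counted from the gene (dotted line); red points have an adjusted p under 0.05. Of 1060 genes 69 were called with Cr2 and of 1646 genes 162 with Igfl3, with both signs and mostly in the part of the chromosome that holds the gene.

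A cluster of apolipoprotein genes about 50 places away was most alike to Igfl3. Apoc1, a small lipoprotein protein, ran from 8.90 over a median of 9.83 to 11, with a slope of 0.32 ± 0.01 (limma adjusted p = 1.7e-59) and a fitted 2.10-fold. Apoc2, the cofactor of lipoprotein lipase, ran from 3.42 over 5.13 to 7.15, with a slope of 0.48 ± 0.02 and a fitted 3.02-fold. Apoc4, between them, had a slope of 0.23 ± 0.01. Apoc1 and Apoc2 each had an empty interval of their own, 0.40 and 0.33 wide, and each was on the same side as Igfl3 in 149 mice. In the 2 others Igfl3 was high and the apolipoprotein gene low. None of the 75 mice with low Igfl3 had high Apoc1 or Apoc2.

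The remaining genes of the positive group were also on chromosome 7. They were Blvrb, a biliverdin reductase (0.13 ± 0.01), Ccdc9 (0.13 ± 0.01), Zscan22 (0.12 ± 0.01), Tarm1 (0.12 ± 0.01), Cd3eap, an RNA polymerase I subunit (0.10 ± 0.01), Pafah1b3 (0.07 ± 0.01) and Psmd8, a proteasome subunit (0.06 ± 0.01). Of the 5 most negative, Clcn4, a chloride transporter 98 places before Igfl3, ran from 6.23 over 7.15 to 7.86 and had a slope of -0.19 ± 0.01 (limma adjusted p = 1.8e-31). Gapdhs, an enzyme of glycolysis in sperm, had a slope of -0.19 ± 0.01, Zfp667 one of -0.16 ± 0.01 and Tfpt one of -0.08 ± 0.01. Zfp991 (-0.19 ± 0.02) is listed on chromosome 4 and was the first gene of another chromosome, at rank 10. It belongs to a large zinc finger family whose members share sequence, so its identity is uncertain.

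Of the 10 genes closest to Igfl3, 5 on each side, 1 was called. Mill1, a relative of major histocompatibility class I genes right after Igfl3, ran from 5.57 to 7.59 and fell with Igfl3 (slope -0.10 ± 0.02, limma adjusted p = 1.9e-06). Ceacam5, Ceacam11, Ceacam12, Ceacam13, Ceacam14, Psg18, Psg25, Psg26 and Psg28 had medians between 1.72 and 3.09 and slopes between -0.01 and 0.02 (limma adjusted p 0.67 to 0.94). Members of these families also share sequence. Igflr1, the receptor of Igfl3, lies on the same chromosome 268 places away. It ran from 3.73 over 4.30 to 4.98, with a slope of 0.02 ± 0.01 (limma adjusted p = 0.63), so the receptor transcript was not called with its ligand. Of the skin and immune lists, the only member called was Klk5, a protease of the cornified layer on chromosome 7 (0.05 ± 0.01, limma adjusted p = 0.020). It was 1 of 13 measured genes of the differentiated epidermis list, against 1.03% called of all genes and 9.84% on chromosome 7. It lies 376 places from Igfl3, and of the 1254 genes more than 200 places away 5.02% were called. This call therefore does not set the list apart. Of 29 measured stress keratins and alarm genes 0 were called, which does not set the list apart from the 1.03% called of all genes.

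**Figure D4:**
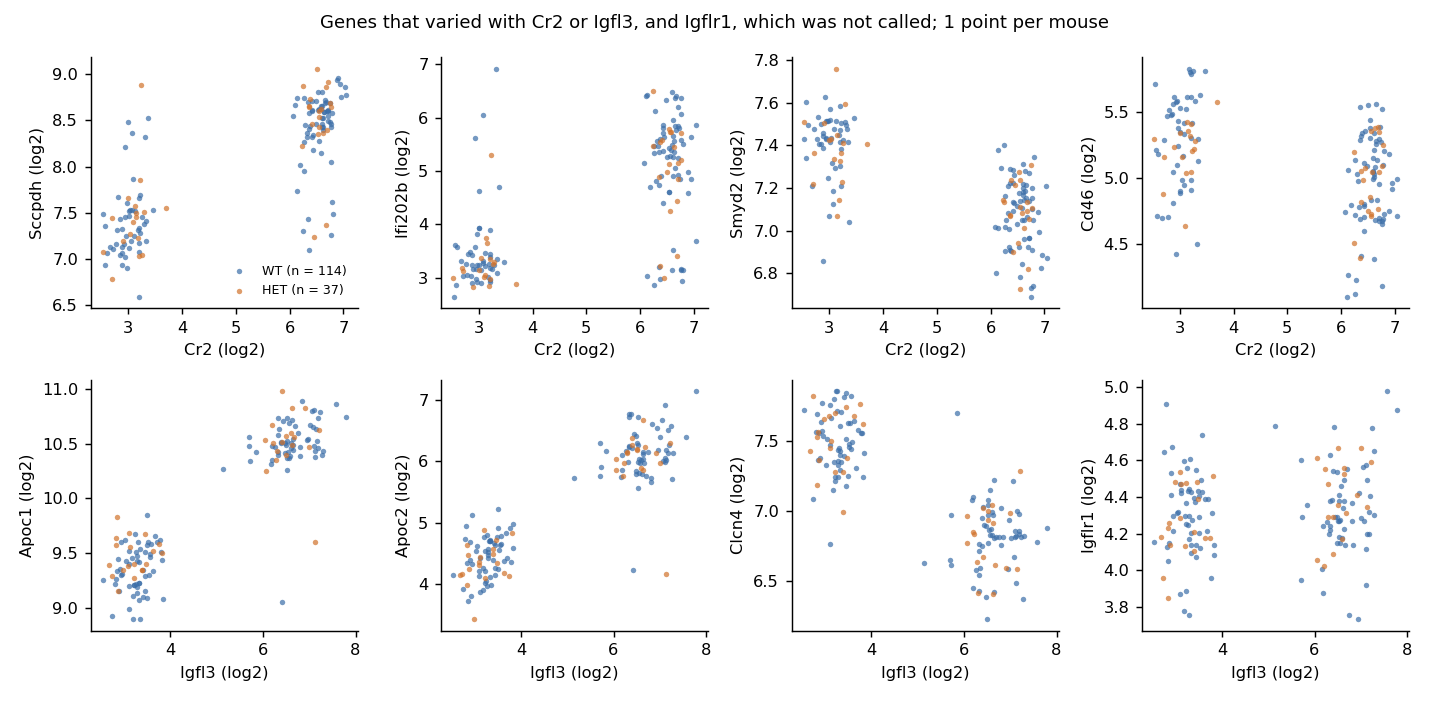
Levels on the log2 scale of 4 genes against Cr2 (top) and 4 against Igfl3 (bottom), 1 point per mouse, blue for WT and orange for HET. Apoc1 and Apoc2 fall on the side of Igfl3 in 149 mice and opposite in 2, Smyd2, Cd46 and Clcn4 run the other way, and Igflr1 was not called.

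Inside the sets, whether Sccpdh passed depended on the coefficient and on the number of tests adjusted for. Over the 86 mice with high Cr2 its slope was 0.49 ± 0.26 and was not called (limma adjusted p = 0.31), while Spearman's rho was 0.30 (permutation p = 0.020 adjusted over 20 correlations) and Pearson's r 0.20 (permutation p = 0.18, likewise adjusted; 0.14 without the 2 mice farthest from the median, and 0.25, 0.21 and 0.18 by plate). Over the 65 mice with low Cr2 its r was 0.31 (permutation p = 0.047 adjusted over the 20; 0.31 without the 2 farthest mice, and 0.32, 0.16 and 0.51 by plate) and its rho 0.28 (permutation p = 0.085, likewise adjusted), with a limma adjusted p of 1.00. Sccpdh thus passed by 1 of the 2 coefficients in each set and by the fit in neither. Over the mice with low Cr2 its unadjusted p was 0.012 both in the limma fit and by permutation of r. There the adjusted values of the fit and of r differ because the fit is adjusted over all genes and r over 20 correlations. Over the mice with high Cr2 the slope of Ifi202b was -0.13 ± 0.61 (limma adjusted p = 0.95). Over the 76 mice with high Igfl3 the slope of Apoc1 was 0.01 ± 0.07 and that of Clcn4 0.08 ± 0.07 (limma adjusted p 0.98 and 0.72). In the same mice 5 of 1646 chromosome 7 genes were called, all with a positive slope (0.304%, against 0.436% of all genes). Among them was Ccdc9, 1 of the 10 genes most alike to Igfl3, with a slope of 0.28 (limma adjusted p = 0.026). The apolipoprotein gene Apoe was also called in these mice, with a slope of 0.16 (limma adjusted p = 0.034). Apoc2, like Apoc1, was not (slope -0.02 ± 0.12, limma adjusted p = 0.98). In the lower sets 0% of genes were called, both with Cr2 (574 at an unadjusted p under 0.05) and with Igfl3 (1347), where the values lie near background. These fits, like those that follow, were chosen after the data were seen.

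Among the 86 mice with high Cr2, hair follicle genes fell as Cr2 rose. Of 18 measured genes on the hair follicle list 13 were called with a negative slope and none with a positive one. Of all genes 4.12% were called, 2.17% with a negative slope. The median slope of the list was -1.46, with 0% of its slopes above 0. That of all genes was 0.0006, with 50.1% above 0. Slopes of both signs make up the median of all genes, so it does not give the usual size of a slope. Lef1, a Wnt pathway transcription factor of the hair matrix, ran from 4.72 over 6.01 to 7.94 in these mice and had a slope of -1.78 ± 0.28 (limma adjusted p = 3.2e-05). For 1 SD of Cr2 in these mice, 0.21, that fits a fall by 0.38 on the log2 scale. This SD includes the difference between plates, which the slope does not. Within plates the SD of Cr2 was smaller, 0.16 to 0.19, and so would be the fall. Krt35, a hair shaft keratin, ran from 6.06 to 10.3 with a slope of -2.33 ± 0.42 (limma adjusted p = 2.5e-04), and the inner root sheath keratins Krt25 and Krt71 had slopes of -1.63 ± 0.34 and -1.59 ± 0.34. Msx2, a matrix transcription factor, had a slope of -1.51 ± 0.29, and the stem cell marker Lgr5 one of -0.92 ± 0.25. Krt72, Krt31, Krt27, Krt33a, Krt34, Tchh and Lhx2 made up the 13, while Hoxc13, Foxn1, Krt86, Sox9 and Cd34 were not called (limma adjusted p 0.0505 to 0.85). Hair keratins of one type share sequence, so single members are less certain than the group.

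The median slope of the hair follicle list was -2.04 on plate 1, -2.94 on plate 2 and -0.58 on plate 3, a difference that was not tested. On plate 3 alone, where Cr2 was lowest, none of the 18 was called, and 0% of all genes were. On plates 1 and 2 alone 4 and 1 were called, against 0.277% and 0.617% of all genes. The median slope was -1.38 in males and -2.02 in females, among fewer mice. There 1 and 6 of the list were called, against 0.303% and 0.277% of all genes. In WT mice alone the median slope was -1.78, with 14 called, against 1.96% of all genes. After centring the arrays or quantile normalization it was -1.69 and -1.51, with 15 and 13 called, where 678 and 709 of all genes were. In bulk skin, fewer cells of a type and less transcript per cell cannot be told apart. Hair follicle transcripts also vary between mice with the stage of hair growth, and the part of that in the result was not tested.

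The other genes called in the mice with high Cr2 were spread over all autosomes and the X chromosome, and chromosome 1 had no larger share (3.77% called) than the genome (4.12%). Calls numbered 775, 366 with a positive and 409 with a negative slope. Centring the arrays changed this split to 157 and 521 and quantile normalization to 207 and 502, so the count of genes that rose with Cr2 depends on the scaling. The smallest p belonged to Fads2, a fatty acid desaturase (slope -1.68 ± 0.25, limma adjusted p = 2.0e-05), whose Pearson r was -0.60 and Spearman rho -0.59 (n = 86), and -0.60, -0.83 and -0.44 within plates 1, 2 and 3. Its neighbour and partner Fads1 had a slope of -0.98 ± 0.18. Both are on the sebaceous gland list, of which Cidea and Pparg rose with Cr2 over all mice. Of its 17 measured genes Fads2 and Fads1 fell in these mice and Acsbg1 rose. The median slope of that list was 0.24. Fbp1, an enzyme of gluconeogenesis, had the steepest slope of the 12 genes with a negative slope and the smallest p, -2.91 ± 0.47. Steap2, a metal reductase, had one of -1.28 ± 0.19. On the positive side Acad9, a mitochondrial assembly factor, led (0.44 ± 0.07, limma adjusted p = 1.2e-04; r = 0.56, and 0.69, 0.68 and 0.39 by plate), with Fgfr3 (0.68 ± 0.13) and Lrp4 (0.83 ± 0.15), both receptors, among the next. These genes were named after their values were seen.

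Some basal epidermis genes rose with Cr2 in these 86 mice in the deposited values. Of 9 measured, 5 were called with a positive slope, against 1.95% of all genes. They were Dst, Col17a1, Itga6, Lamb3 and Itgb4, which encode parts of the hemidesmosome or of the laminin it binds. Col17a1 ran from 8.92 to 9.83 with a slope of 0.41 ± 0.11 (limma adjusted p = 0.017). The keratins Krt5 and Krt14 of the same cells had slopes of 0.16 ± 0.07 and 0.17 ± 0.07 and were not called. The median slope of the 9 was 0.37, and it stayed positive after centring the arrays (0.24) and quantile normalization (0.29), where 0 were called. Without the 2 mice farthest from the median 2 were called, and in males, females, WT mice or a single plate alone 0. Of 22 measured insulin-like growth factor genes Insr and Igfbp3 rose and Igfbp4 and Stc1 fell, 4 in all, against 4.12% called of all genes. Of 22 B lymphocyte genes 1 was called, a share near that 4.12%: Cd72, which ran from 3.69 to 5.45 (slope 0.87 ± 0.23).

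Whether slopes differed between the mice with low and high Cr2 was tested directly, and 0% of genes were called (1104 at an unadjusted p under 0.05), among them neither Lef1 nor Fads2 (limma adjusted p 0.79 and 0.73). The hair follicle pattern is therefore not shown to be particular to mice with high Cr2. In the 65 mice with low Cr2 the list's median slope was -0.11. Over all mice it was -0.06, with none of 18 called.

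Among the 76 mice with high Igfl3, 82 genes were called (0.436%), 50 with a positive and 32 with a negative slope. Of these, 27 lay on chromosome 4, 2.43% of the 1113 measured there, from place 415 to 1110 in the order of that chromosome and with a median place of 888. Vps13d, a lipid transfer protein, ran from 7.83 to 8.48 with a slope of 0.20 ± 0.03 (limma adjusted p = 0.0011), an r of 0.60 and 0.53, 0.67 and 0.58 by plate. Srm, spermidine synthase, had a slope of -0.26 ± 0.05, an r of -0.54 and -0.55, -0.68 and -0.43 by plate. Slc2a5, a fructose transporter, had a slope of 0.69 ± 0.13, and Smpdl3b, a phosphodiesterase of lipids, one of -0.73 ± 0.14, all on chromosome 4. Off it, Eppk1, an epidermal linker protein (0.39 ± 0.07), rose and Igfbp5, a binding protein of insulin-like growth factors, fell (-0.55 ± 0.12).

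These calls with high Igfl3 depended on the scaling and on few mice. Centring left 38 (17 on chromosome 4), quantile normalization 41 (17), leaving out the 2 mice farthest from the median 25 (15) and WT mice alone 7 (3), and the split into positive and negative was 19 and 19 after centring and 17 and 24 after quantile normalization. Males alone, females alone and plates 1 and 3 alone gave 0, and plate 2 gave 1, with fewer mice. The slope differed between the low and high Igfl3 mice for 0% of genes (1207 at an unadjusted p under 0.05). Of 18 hair follicle genes 0 were called with Igfl3 in its upper set, with a median slope of -0.08, which does not set the list apart from the 0.436% called of all genes.

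**Figure D5:**
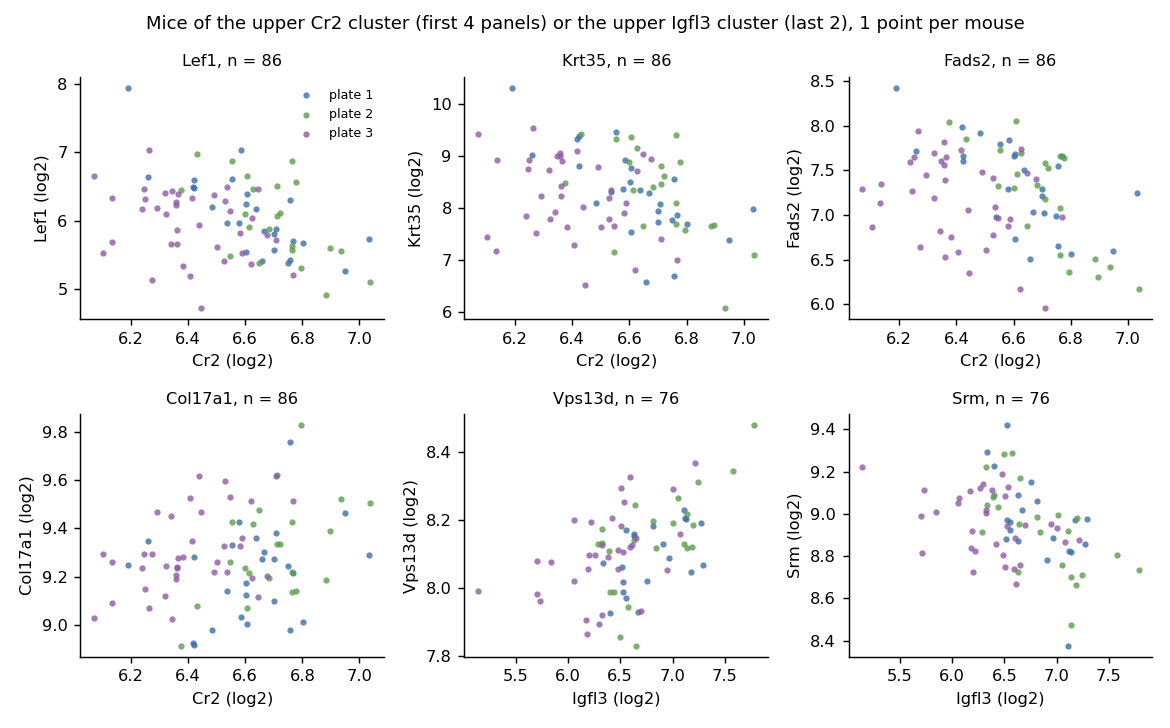
Levels on the log2 scale against Cr2 in the 86 mice of its upper set (Lef1, Krt35, Fads2, Col17a1) and against Igfl3 in the 76 mice of its upper set (Vps13d, Srm), 1 point per mouse, coloured by plate. Lef1, Krt35 and Fads2 fall as Cr2 rises, with plate 3 at the low end of Cr2, and Vps13d rises and Srm falls with Igfl3.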

How the data were processed

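The members and gene lists were chosen with earlier results of these data known. The deposited values are log2 signals per probe set, summarised by the authors with RMA, per the submitters' processing notes, from 1 Affymetrix array per mouse of 114 WT and 37 HET mice (151 in all); no source used here names its version or a build. Genes were the 18810 with a probe set annotated to a single symbol, each taken at the probe set with the highest mean; Cr2 and Igfl3 have 1 probe set each. The number of arrays limits precision, and array medians ran from 4.67 to 4.89. Differences and slopes were fitted over all genes with limma 3.58.1 (R 4.3.3, eBayes with trend; genotype, sex, plate) with Benjamini-Hochberg adjustment and called at an adjusted p under 0.05. Slopes are log2 per log2 of Cr2 or Igfl3. Correlations planned over all mice gave way to these slopes, since mice fell into separate clusters (mclust 6.1.1). Permutation tests used 100000 draws, and 10000 within plates (Python 3.11.15, numpy 2.4.6, scipy 1.17.1). Named genes were, for each gene, the 10 most positive and 5 most negative by residual correlation, the 5 nearest on each side, up to 3 called per list and known partners; C3 was not analysed here. Gene order follows RefSeq GRCm38.p6. Genotype labels were not checked against Hras, whose transcript is left out. The fits were tested on simulated data. Alternatives covered scaling, probe sets, filters, trend, ranks, covariates, plates, sexes and genotypes.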

Additional observations from a re-analysis of the deposited data

How the results depend on the processing

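In the limma fits that take the low and high mice of a gene together, no genotype, sex, plate or interaction difference of Cr2 or Igfl3 passed under any alternative, but several changed sign. Within the upper sets plates did differ for both genes, also after centring and quantile normalization. The HET minus WT difference of Cr2 was 0.32 on plate 3 alone and 0.21 in females alone, and that of Igfl3 was 0.56 on plate 1 alone and 0.083 in females alone. The male minus female difference of Cr2 was 0.36 on plate 2, 0.22 on plate 3 and 0.063 in WT mice alone, and that of Igfl3 was -0.064 on plate 3 and -0.41 in HET mice alone. The slope of Igfl3 on Cr2, never called, was 0.041 on plate 2 alone and 0.064 on ranks. The number of genes called with Cr2, 119, was 49, 5 and 12 on plates 1, 2 and 3, 30 in males, 18 in females, 65 in WT, 8 in HET and 225 on ranks. The share of mice above the empty interval stayed within its binomial interval in the residuals, after centring and with the outlier arrays. The width of the empty interval moved by less than the SD over all mice, 1.76 for Cr2 and 1.73 for Igfl3. For Igfl3 that limit exceeds the interval itself, 1.31, so it cannot show that the interval held. With the outlier arrays 1 mouse lay inside the Igfl3 interval, at 4.03. The number called with Igfl3, 193, was 83, 48 and 52 on the plates, 91 in males, 120 in females, 125 in WT and 32 in HET. Subsets hold fewer mice; the cause of the rise on ranks was not tested. Within the upper Cr2 set, 4.12% of genes called became 0.303% in males, 0.277% in females, 1.96% in WT and 0.277%, 0.617% and 0% on the plates; within the upper Igfl3 set, 0.436% became 0.202% after centring, 0.218% after quantile normalization, 0.133% without the 2 farthest mice, 0.0372% in WT, 0% in males and in females, and 0%, 0.0053% and 0% on the plates. Of 36 named genes called over all mice, none changed sign in 576 refits and 71 refits lost the call, 51 of them on a single plate or in HET mice. Most of the 36 were picked by correlation in the same mice that the refits use, so their kept signs are no independent support. Uncalled slopes near 0 changed sign: for Cr2, Cd34 (-0.0061 with the outlier arrays, -0.0064 in males, -0.0086 in WT, -0.0013 without the 2 farthest mice), Cd81 (0.012 on plate 1, 0.0082 in HET) and A330023F24Rik (0.014 on plate 2, 0.0022 in females); for Igfl3, Ceacam13 (0.0034 on plate 1), Ceacam12 (-0.0065 on plate 1, -0.0013 on plate 2, -0.00067 in males, -0.017 in HET, -0.012 on ranks), Ceacam11 (-0.027 on plate 2, -0.0091 in males, -0.020 on ranks), Ceacam5 (-0.0084 on plate 3, -0.0083 in HET), Psg28 (0.00018 on plate 1, 0.00039 on plate 2, 0.0041 in females, 0.0016 in WT), Psg26 (-0.00029 on plate 2) and Psg25 (-0.0015 on plate 3). The alternatives for the upper sets, the permutation tests within sets and the Fisher tests were chosen after seeing the data. No paired analysis was possible because the labels give mice no replicate numbers shared between groups.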

Other observations

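The 2 arrays labelled as outliers, both of WT males on plate 2, were left out of all comparisons above. Their Cr2 levels were 6.32 and 6.58, both within the upper set of the other mice. Their Igfl3 levels were 6.59 and 4.03. The second lies between 3.84 and 5.14, the interval in which none of the other mice had a value.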
